A study of Mus musculus with 3 samples.

Results

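The genes of MHC class I antigen presentation and of the proteasome core were followed in sorted mouse lung cells after endotoxin. They are 34 genes of the 55357 features in the count tables, taken by symbol, and all 34 were found. They fall into 9 class I chains, 6 genes of peptide transport, loading, trimming and transactivation, 5 genes of the immunoproteasome and its PA28 activator, 3 constitutive catalytic subunits and 11 other subunits of the 20S core.

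The cells came from wild type C57BL/6 mice and were sorted as live CD45+ Ly6G- F4/80+ cells positive for CD11b or CD11c. The 3 groups were LPS (4 mg/kg) given with Reg3g (6 µg), LPS (4 mg/kg) alone and PBS, each instilled into the trachea 24 h before the lungs were taken, in a volume of 50 µL for LPS and for PBS. LPS is bacterial endotoxin, used here as a model of acute lung injury, and Reg3g is a secreted C-type lectin. Each group is a single library for which the cells of 3 mice were pooled. No difference below therefore has a replicate check, and no p-value is given. Intervals are 95% intervals for counting error alone. The age and sex of the mice are not given in the sources used here.

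MHC class I molecules display short peptides of the cell's own proteins to CD8 T cells and NK cells. The 20S proteasome cuts proteins into these peptides, the TAP transporter moves them into the endoplasmic reticulum, and the loading complex places them on the heavy chain, which is held together with beta-2-microglobulin. Interferon-gamma is known to replace the 3 constitutive catalytic subunits Psmb5, Psmb6 and Psmb7 with Psmb8, Psmb9 and Psmb10, which gives the immunoproteasome, a form that blood and immune cells also carry at rest.

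After filtering, 9281 cells remained for LPS with Reg3g, 13015 for LPS and 7860 for PBS, with medians of 5459, 4216 and 5924 UMIs per cell. A UMI is a tag that counts each captured RNA molecule once. Each pair of libraries shared 28 to 37 barcodes, of which 22 to 32 were in both sets of kept cells. Clusters were called "like" a cell type from marker genes. The alveolar-macrophage-like class held 4105, 5035 and 3556 cells of the LPS with Reg3g, LPS and PBS libraries, and the monocyte-like class held 4205, 6047 and 2265. Another 5 classes had at least 50 cells in each library: interstitial-macrophage-like, migratory dendritic cell-like, type 1 and type 2 conventional dendritic cell-like, and T or NK cell-like. The neutrophil-like class reached that size only in both LPS libraries. These classes share the same 3 libraries and are not independent of one another. Levels are UMIs per 1e6 UMIs of a class (CPM), and a fold is given as a log2 ratio of CPM. UMIs of transcript ends carry no length factor, yet capture differs between transcripts, so levels are compared across libraries and classes rather than between genes.

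Of the 34 members 14 lie on chromosome 17. On the mm10 build, GENCODE M21 places H2-K1 at chr17:33996017-34000347 on the minus strand. Psmb9 and Tap1 lie head to head, with start sites in RefSeq at positions 34187330 and 34187556 of chromosome 17 and 225 bases between them, so that both are read from the same short stretch of DNA. The 200 bases before the start sites of 6 members are printed below because the results turn on these genes. They are a class I heavy chain, its light chain, the immunoproteasome subunits Psmb8 and Psmb9, and their constitutive partners Psmb5 and Psmb6. These partners differed more between LPS and PBS than Psmb7 in both main classes. The sequences are RefSeq promoters on GRCm38.p6 (mm10), written 5′ to 3′ on the gene's strand. Capitals mark matches, on either strand, to GAAANNGAA (for the interferon-stimulated response element), TTCNNNGAA (the gamma-activated sequence, the same on both strands), GGGNNTTNC (for kappa B) or TGACNNNGC (for the antioxidant response element), where N is any base. The Psmb9 stretch is also most of the Tap1 promoter, read from the other strand.
H2-K1, chr17:34000348-34000547, minus strand: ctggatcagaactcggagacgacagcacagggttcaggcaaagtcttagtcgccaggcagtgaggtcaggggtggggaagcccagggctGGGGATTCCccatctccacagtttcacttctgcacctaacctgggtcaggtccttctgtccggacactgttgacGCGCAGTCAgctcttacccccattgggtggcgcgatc
B2m, chr2:122147487-122147686, plus strand: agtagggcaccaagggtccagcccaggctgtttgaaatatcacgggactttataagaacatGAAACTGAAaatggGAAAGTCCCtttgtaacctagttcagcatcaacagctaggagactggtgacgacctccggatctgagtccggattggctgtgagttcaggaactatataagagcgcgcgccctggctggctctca
Psmb8, chr17:34197995-34198194, plus strand: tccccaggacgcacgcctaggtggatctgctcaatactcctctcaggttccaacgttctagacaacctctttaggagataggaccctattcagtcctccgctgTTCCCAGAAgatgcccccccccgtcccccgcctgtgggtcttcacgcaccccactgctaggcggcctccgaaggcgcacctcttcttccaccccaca
Psmb9, chr17:34187331-34187530, minus strand: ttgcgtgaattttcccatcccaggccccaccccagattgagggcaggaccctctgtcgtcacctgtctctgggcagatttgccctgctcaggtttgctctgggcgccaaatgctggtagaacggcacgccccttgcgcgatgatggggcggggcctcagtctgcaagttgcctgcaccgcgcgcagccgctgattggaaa
Psmb5, chr14:54617996-54618195, minus strand: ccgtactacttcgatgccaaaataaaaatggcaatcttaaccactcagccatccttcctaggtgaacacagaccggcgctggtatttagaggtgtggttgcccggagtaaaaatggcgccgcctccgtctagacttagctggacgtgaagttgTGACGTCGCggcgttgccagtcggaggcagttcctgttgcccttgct
Psmb6, chr11:70525157-70525356, plus strand: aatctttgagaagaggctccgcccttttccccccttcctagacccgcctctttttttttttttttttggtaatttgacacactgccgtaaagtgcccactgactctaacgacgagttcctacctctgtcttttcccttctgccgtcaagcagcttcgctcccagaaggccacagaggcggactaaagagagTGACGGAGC

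Promoters of 300 bases, which run 50 bases past the start site, were found for 28 of the 34 members. The kappa B letters occurred in 7 of them, the 6 class I chains H2-K1, H2-D1, H2-Q4, H2-Q6, H2-Q7 and B2m and the core subunit Psma6. They occur in 15.2% of the 32851 promoters of that table. The letters for the interferon-stimulated response element were found in 7 members, H2-T22, H2-T23, B2m, Erap1, Psme1, Psmb3 and Psmb4, and in 8.56% of all promoters. Forms of an element with other letters were not searched, so a window without a match may still hold one. In B2m the GAAANNGAA match starts at position -139 from the start site, just ahead of the kappa B match at position -125. The letters for the gamma-activated sequence were in H2-M3 and Psmb8 and in 8.30% of all promoters. The letters for the antioxidant response element were in H2-K1, H2-T22, Psmb5 and Psmb6 and in 12.4% of all promoters. The last 2 of these genes are constitutive catalytic subunits, and Psmb7 had no promoter in that table. No immunoproteasome gene held those letters, but 4 of 28 members lie near the share of all promoters. No contrast between the forms of subunit is therefore drawn. A match of letters is a description of the window and no evidence of binding.

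In alveolar-macrophage-like cells the LPS library was higher than the PBS library in most of the pathway, and the nonclassical class I chains H2-Q7 and H2-Q6 had the highest ratios of single members. Alveolar macrophages are the resident phagocytes of the airspace. Of 33 members measured, that is with at least 10 CPM in either library, 31 had a log2 ratio above 0, and the median ratio was 0.66 against -0.25 over all 7844 genes. At least a 2-fold higher level was seen in 7 of the 33, against 5.74% of all genes, and at least a 2-fold lower level in 0 of the 33, against 14.0% of all genes. Scaling by median-of-ratios or by a trimmed mean moved the all-gene median to 0.08 and 0.09 and the number of members 2-fold higher to 15 and 16. The 5.74% belongs to the main scaling alone, and the share of all genes under the other scalings is not given. The members' median lay 0.91 above the all-gene median, a gap that scaling cannot change, and 32 of the 33 members lay above the all-gene median.

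**Figure D1:**
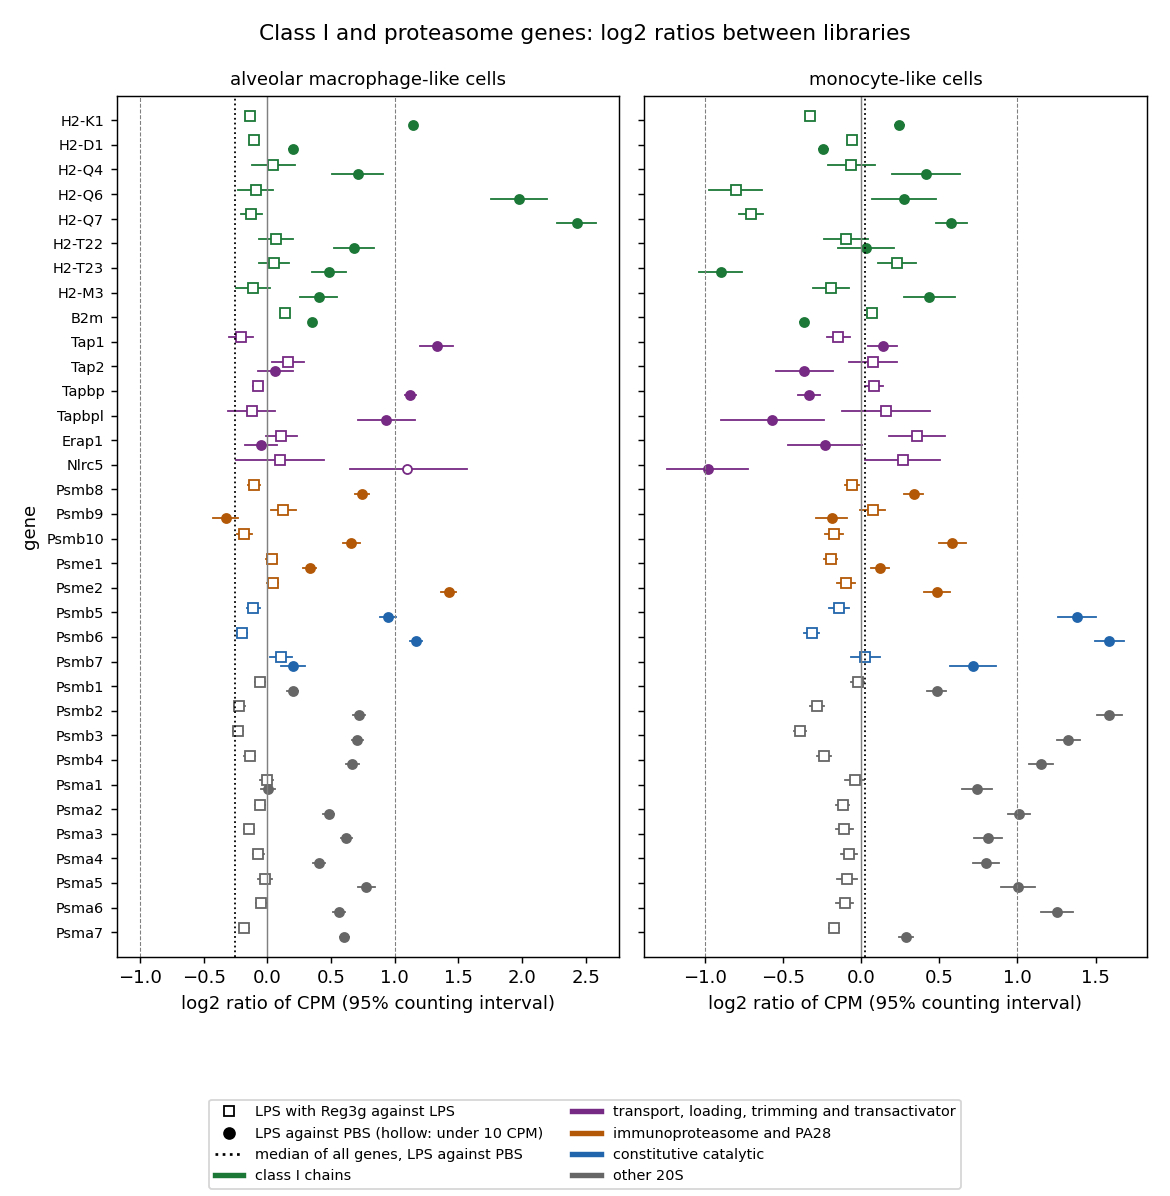
Log2 ratio of CPM, LPS over PBS and LPS with Reg3g over LPS, for each member in alveolar-macrophage-like and monocyte-like cells, with 95% counting intervals and members grouped by role. Ratios of LPS over PBS reach 2.43 for H2-Q7 in alveolar-macrophage-like cells and 1.59 for Psmb6 in monocyte-like cells, whereas ratios of LPS with Reg3g over LPS all lie within a 2-fold difference.

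The H2-Q7 gene encodes a nonclassical class I chain of the Qa-2 type. It stood at 71.7 CPM in LPS with Reg3g, 78.3 CPM in LPS and 14.6 CPM in PBS. Its LPS over PBS log2 ratio was 2.43 (2.28 to 2.58), the highest of the 34 members in alveolar-macrophage-like cells. H2-Q6, a near-identical neighbour 9099 bases away, had 27.1 CPM in LPS with Reg3g, 28.9 CPM in LPS and 7.36 CPM in PBS. Both LPS libraries were thus well above PBS for this pair. Reads of these 2 genes may be split or shared by the counting, so their separate values are uncertain.

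H2-K1, a classical class I heavy chain that presents peptides to CD8 T cells, was at least 2-fold higher in LPS than in PBS. It had 1509 CPM in LPS with Reg3g, 1662 CPM in LPS and 754 CPM in PBS, with a log2 ratio of LPS over PBS of 1.14 (1.12 to 1.16). The other classical heavy chain, H2-D1, had 819 CPM in LPS with Reg3g, 881 CPM in LPS and 768 CPM in PBS, with a ratio of 0.20. The 2 heavy chains therefore differed between the libraries by unequal amounts. B2m, the light chain they share, had 1471 CPM in LPS with Reg3g, 1333 CPM in LPS and 1043 CPM in PBS, with a ratio of 0.35. Among the other nonclassical chains, log2 ratios of LPS over PBS were 0.71 for H2-Q4, 0.68 for H2-T22, which is recognised by gamma-delta T cells, 0.48 for H2-T23, the Qa-1 chain seen by NKG2A of NK cells, and 0.40 for H2-M3, which presents formylated bacterial peptides. All of these lay above 0, at levels from 18.2 to 37.0 CPM in LPS and from 11.2 to 26.5 CPM in PBS.

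Summed over the 9 class I chains, alveolar-macrophage-like cells had 4014 CPM in LPS with Reg3g, 4098 CPM in LPS and 2666 CPM in PBS. The monocyte-like sums were 5263 CPM in LPS with Reg3g, 5774 CPM in LPS and 6147 CPM in PBS. The alveolar-macrophage-like sum was thus higher after LPS and the monocyte-like sum lower. Markers of the class itself moved too: the 12 alveolar macrophage markers summed to 12446, 12430 and 17164 CPM in the alveolar-macrophage-like cells of LPS with Reg3g, LPS and PBS, with none at 0. Epithelial markers summed there to 41.0, 33.5 and 178 CPM and platelet markers to 77.0, 73.3 and 8.25 CPM in the same order of libraries. Their part in the result was not tested.

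Peptide transport and loading genes in alveolar-macrophage-like cells divided into those that were higher in LPS and those that were not. Tap1, a TAP transporter chain, had 50.6 CPM in LPS with Reg3g, 58.4 CPM in LPS and 23.3 CPM in PBS, a log2 ratio of LPS over PBS of 1.33 (1.20 to 1.46). Tapbp, or tapasin, which bridges TAP to the empty class I molecule, had 385 CPM in LPS with Reg3g, 405 CPM in LPS and 186 CPM in PBS, a ratio of 1.12 (1.08 to 1.17). Its gene overlaps Zbtb22 on the same strand, so counts of the 2 cannot be fully told apart. Tapbpl, a tapasin-like peptide editor, had 15.2 CPM in LPS with Reg3g, 16.5 CPM in LPS and 8.64 CPM in PBS. By contrast, Tap2, the partner chain of Tap1, had a ratio of 0.06 (-0.07 to 0.20) and Erap1, which trims peptides in the endoplasmic reticulum, one of -0.05 (-0.18 to 0.08). Their levels were 35.3 and 35.8 CPM in LPS with Reg3g, 31.6 and 33.1 CPM in LPS, and 30.2 and 34.3 CPM in PBS, so neither gene differed between LPS and PBS beyond counting error. The ratio of Erap1 changed sign under other scalings, to 0.28 and 0.29. Nlrc5, the transactivator of class I genes, stayed under 10 CPM in all 3 libraries, at 4.72 CPM in LPS with Reg3g, 4.401 CPM in LPS and 2.05 CPM in PBS.

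Monocyte-like cells showed another pattern: the proteasome core was higher after LPS and the presentation genes were mixed. Of 34 members measured, 25 had a log2 ratio of LPS over PBS above 0, and the median ratio was 0.42 against 0.02 over all 7670 genes. At least a 2-fold higher level was seen in 8 of the 34, against 11.0% of all genes, and at least a 2-fold lower level in 0, against 8.55%. All 8 were proteasome genes: 2 of the 3 constitutive catalytic subunits and 6 of the 11 other core subunits. Medians by role were 1.38 for the constitutive catalytic subunits, 1.00 for the other core subunits, 0.33 for the immunoproteasome and PA28, 0.24 for the class I chains and -0.35 for the transport and loading genes. In alveolar-macrophage-like cells the corresponding medians were closer together, at 0.95, 0.60, 0.66, 0.68 and 0.93.

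H2-K1 in monocyte-like cells had 1756 CPM in LPS with Reg3g, 2204 CPM in LPS and 1860 CPM in PBS, a log2 ratio of LPS over PBS of 0.24 (0.22 to 0.27). H2-D1 and B2m went the other way. H2-D1 had 1364 CPM in LPS with Reg3g, 1423 CPM in LPS and 1684 CPM in PBS, with a ratio of -0.24. B2m had 1830 CPM in LPS with Reg3g, 1746 CPM in LPS and 2251 CPM in PBS, with a ratio of -0.37. H2-T23 was the lowest class I chain relative to PBS, at 55.9 CPM in LPS with Reg3g, 47.7 CPM in LPS and 89.0 CPM in PBS, with a ratio of -0.90 (-1.04 to -0.76). The remaining class I chains had ratios between 0.03 for H2-T22 and 0.58 for H2-Q7.

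Nlrc5 was measurable in monocyte-like cells, at 15.5 CPM in LPS with Reg3g, 12.9 CPM in LPS and 25.5 CPM in PBS, a log2 ratio of LPS over PBS of -0.98 (-1.24 to -0.72). Tapbp had 237 CPM in LPS with Reg3g, 224 CPM in LPS and 282 CPM in PBS, with a ratio of -0.33, opposite in sign to its ratio in alveolar-macrophage-like cells. The ratios of Tapbpl, Tap2 and Erap1 were -0.57, -0.37 and -0.23. Tap1 was the exception among transport and loading genes, with 143 CPM in LPS with Reg3g, 159 CPM in LPS and 144 CPM in PBS and a ratio of 0.14 (0.04 to 0.23). The cells behind this class differ between libraries: the 9 interstitial macrophage markers summed in monocyte-like cells to 1685, 1855 and 125 CPM in LPS with Reg3g, LPS and PBS, neutrophil markers to 1171, 699 and 194 CPM, and cell cycle genes to 246, 339 and 31.6 CPM. Their part in the result was not tested.

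The catalytic subunits carry the cutting sites of the proteasome, and each constitutive subunit has an immune counterpart that takes its place. Psmb6 and its counterpart Psmb9 parted most clearly. Psmb6 had 309 CPM in LPS with Reg3g, 385 CPM in LPS and 128 CPM in PBS monocyte-like cells, a log2 ratio of LPS over PBS of 1.59 (1.5 to 1.68). Psmb9 had 124 CPM in LPS with Reg3g, 118 CPM in LPS and 134 CPM in PBS, a ratio of -0.19 (-0.29 to -0.09). Psmb6 was therefore well above PBS in both LPS libraries while Psmb9 was slightly below it. The same held in alveolar-macrophage-like cells, where Psmb6 had 350, 402 and 179 CPM in LPS with Reg3g, LPS and PBS, a ratio of 1.17 (1.12 to 1.22), and Psmb9 had 56.3, 51.6 and 64.6 CPM, a ratio of -0.32 (-0.42 to -0.23). Under the other scalings the Psmb9 ratio in alveolar-macrophage-like cells was 0.01 or 0.02, so its direction there rests on the scaling.

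**Figure D2:**
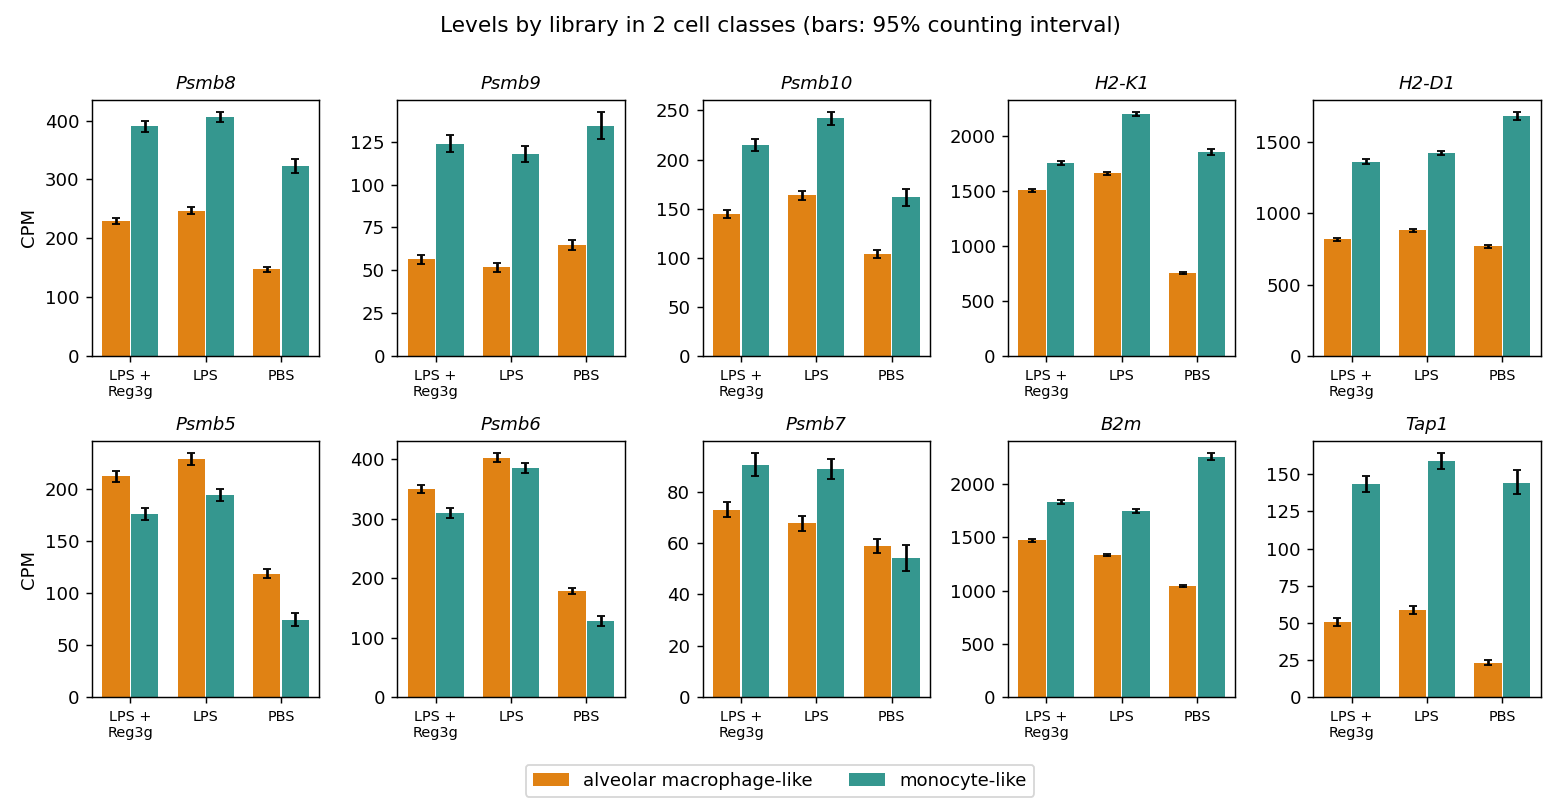
Level in CPM, from 0 on a linear axis, of the catalytic pairs, H2-K1, H2-D1, B2m and Tap1 in LPS with Reg3g, LPS and PBS, for alveolar-macrophage-like (orange) and monocyte-like (green) cells, with error bars for 95% counting intervals. H2-K1 of alveolar-macrophage-like cells stands at 1509 and 1662 CPM in both LPS libraries and at 754 CPM in PBS, and Psmb6 of monocyte-like cells at 309 and 385 CPM against 128 CPM, while Psmb9 differs little.

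The Psmb5 and Psmb8 pair carries the chymotrypsin-like activity. In monocyte-like cells Psmb5 had 176 CPM in LPS with Reg3g, 194 CPM in LPS and 74.4 CPM in PBS, and Psmb8 had 390 CPM in LPS with Reg3g, 406 CPM in LPS and 322 CPM in PBS. Their log2 ratios of LPS over PBS were 1.38 (1.26 to 1.5) and 0.33 (0.27 to 0.40), so the constitutive subunit again differed more. In alveolar-macrophage-like cells the gap was narrower, with ratios of 0.95 for Psmb5, at 212, 228 and 118 CPM in LPS with Reg3g, LPS and PBS, and 0.74 for Psmb8, at 229, 247 and 147 CPM.

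The Psmb7 and Psmb10 pair, of trypsin-like activity, did not follow that order in alveolar-macrophage-like cells. There Psmb7 had 72.9 CPM in LPS with Reg3g, 67.7 CPM in LPS and 58.8 CPM in PBS, a log2 ratio of 0.20 (0.11 to 0.30) for LPS over PBS. Psmb10 had 144 CPM in LPS with Reg3g, 164 CPM in LPS and 104 CPM in PBS, a ratio of 0.66 (0.59 to 0.72). Here the immune subunit differed more than its constitutive partner. In monocyte-like cells the ratios of Psmb7 and Psmb10 were 0.72 (0.57 to 0.86) and 0.58 (0.50 to 0.67), from 90.4 and 215 CPM in LPS with Reg3g, 88.8 and 242 CPM in LPS, and 54.1 and 161 CPM in PBS, and their intervals overlapped.

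Psme1 and Psme2 form the PA28 cap, which opens the core and is also induced by interferon-gamma. Psme2 in alveolar-macrophage-like cells had 311 CPM in LPS with Reg3g, 302 CPM in LPS and 112 CPM in PBS, a log2 ratio of LPS over PBS of 1.42 (1.37 to 1.48), against 0.33 for its partner Psme1. In monocyte-like cells Psme2 had 217 CPM in LPS with Reg3g, 233 CPM in LPS and 166 CPM in PBS, a ratio of 0.48, and Psme1 had a ratio of 0.12. The Psme2 ratio was thus the larger of the 2 in both classes.

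**Figure D3:**
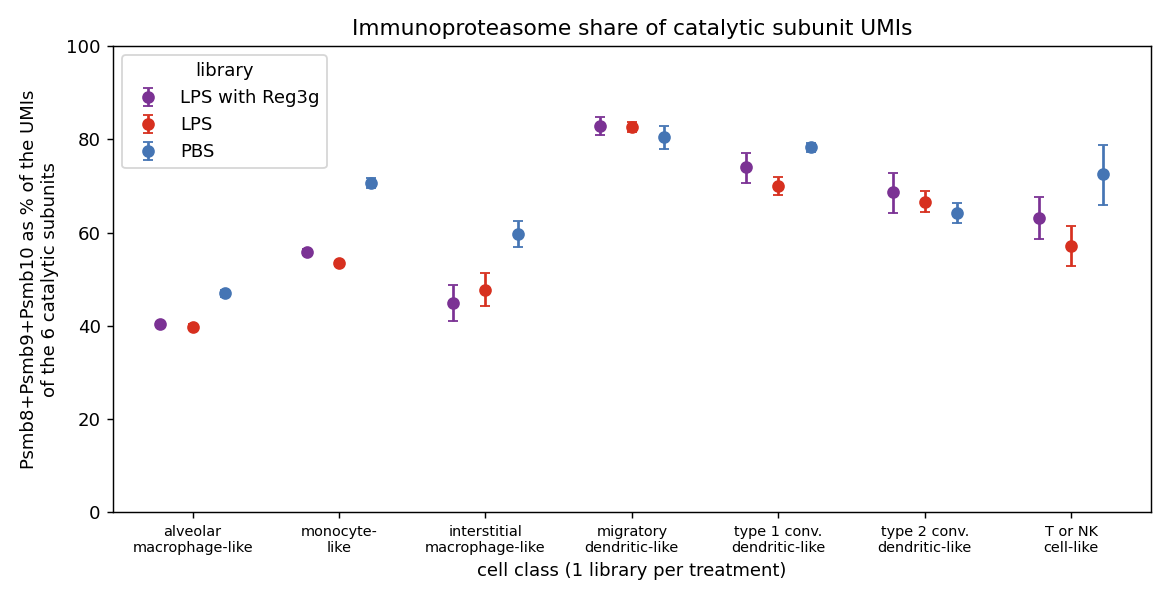
Share of immunoproteasome UMIs (Psmb8, Psmb9 and Psmb10) among all UMIs of the 6 catalytic subunits, in percent, by library and cell class with exact 95% binomial intervals. In monocyte-like cells the share was 55.9% in LPS with Reg3g, 53.4% in LPS and 70.7% in PBS, whereas in migratory dendritic cell-like cells it stayed between 80.5% and 82.9%.

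The immunoproteasome share, the UMIs of Psmb8, Psmb9 and Psmb10 over those of all 6 catalytic subunits, was lower after LPS in 5 of 7 classes. It was 55.9% (55.3 to 56.5) in LPS with Reg3g, 53.4% (52.9 to 54.0) in LPS and 70.7% (69.6 to 71.7) in PBS monocyte-like cells. In alveolar-macrophage-like cells it was 40.4% (39.9 to 40.9), 39.8% (39.3 to 40.3) and 47.0% (46.3 to 47.7) in the same order of libraries. LPS minus PBS was -17.2 percentage points in monocyte-like and -7.16 points in alveolar-macrophage-like cells. The share describes transcripts and not assembled proteasomes, and in monocyte-like cells its lower value went with higher sums of both forms. Constitutive catalytic subunits summed to 575, 668 and 257 CPM in LPS with Reg3g, LPS and PBS monocyte-like cells, and the immunoproteasome with PA28 to 1325, 1433 and 1184 CPM.

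By pair, Psmb9 made up 28.6% of Psmb9 and Psmb6 UMIs in LPS with Reg3g, 23.4% in LPS and 51.2% in PBS monocyte-like cells. Psmb8 made up 69.0%, 67.7% and 81.2% of its pair with Psmb5 in the same libraries, and Psmb10 70.4%, 73.1% and 74.9% of its pair with Psmb7. The pair of Psmb9 and Psmb6 thus showed the widest gap and that of Psmb10 and Psmb7 the narrowest. In alveolar-macrophage-like cells Psmb9 made up 13.8%, 11.4% and 26.5% of its pair in LPS with Reg3g, LPS and PBS. Psmb8 made up 52.0%, 52.0% and 55.4% of its pair there. Psmb10 went the other way, with 66.5%, 70.7% and 63.8%. Its share of its pair was also higher in LPS than in PBS in type 1 conventional dendritic cell-like cells, at 70.6% and 56.5%. In T or NK cell-like cells it was 72.4% and 70.3%, with overlapping intervals. In interstitial-macrophage-like cells it was 66.0% and 68.2%.

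Among single cells the same pattern held after each cell was thinned to 2000 UMIs, which left out 635, 1388 and 431 shallower monocyte-like cells of LPS with Reg3g, LPS and PBS. At least 1 Psmb6 UMI was found in 43.5%, 52.5% and 21.4% of the thinned monocyte-like cells of these libraries, and in 64.0%, 65.9% and 36.2% without thinning. For Psmb9 the thinned shares were 21.4%, 20.6% and 24.2%, and the unthinned shares 38.03%, 32.2% and 35.9%. UMIs of both a constitutive and an immune catalytic subunit were seen together in 48.0%, 53.0% and 28.4% of thinned monocyte-like cells. In alveolar-macrophage-like cells Psmb6 was found in 46.7%, 53.5% and 29.4% of thinned cells and in 84.2%, 83.1% and 70.8% of unthinned ones. Every class expresses these genes, so no class gives a background share from free RNA. For class I chains the median thinned alveolar-macrophage-like cell had 7 UMIs in LPS with Reg3g, 7 in LPS and 5 in PBS, and the median monocyte-like cell 10, 11 and 12.

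The other core subunits, the structural beta subunits and the alpha rings that gate the chamber, all had log2 ratios of LPS over PBS above 0 in both main classes. In alveolar-macrophage-like cells the log2 ratios of the beta subunits were 0.72 for Psmb2, 0.71 for Psmb3, 0.67 for Psmb4 and 0.20 for Psmb1, and 0 of the 11 core subunits reached 2-fold. The alpha subunits ran from 0.01 for Psma1, at 180 CPM in LPS with Reg3g, 181 CPM in LPS and 180 CPM in PBS, to 0.78 for Psma5, at 166 CPM in LPS with Reg3g, 168 CPM in LPS and 98.1 CPM in PBS. Psma6, Psma3, Psma7, Psma2 and Psma4 lay between, at 0.56, 0.62, 0.60, 0.48 and 0.40. Psma1 was thus the single core subunit with no difference beyond counting error in this class.

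In monocyte-like cells Psmb2 differed most among the other core subunits, with 393 CPM in LPS with Reg3g, 478 CPM in LPS and 159 CPM in PBS and a log2 ratio of LPS over PBS of 1.59 (1.51 to 1.67). Psmb3 and Psmb4 had ratios of 1.33 and 1.15, and Psma6, Psma2 and Psma5 ratios of 1.25, 1.01 and 1.00. Below 2-fold were Psma3 at 0.81, Psma4 at 0.80, Psma1 at 0.74, Psmb1 at 0.48 and Psma7 at 0.28. Psma7, the smallest difference of the 11, had 694 CPM in LPS with Reg3g, 784 CPM in LPS and 644 CPM in PBS. Summed, the 11 genes had 3850 CPM in LPS with Reg3g, 4329 CPM in LPS and 2396 CPM in PBS monocyte-like cells and 3200, 3472 and 2414 CPM in alveolar-macrophage-like cells of the same libraries.

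**Figure D4:**
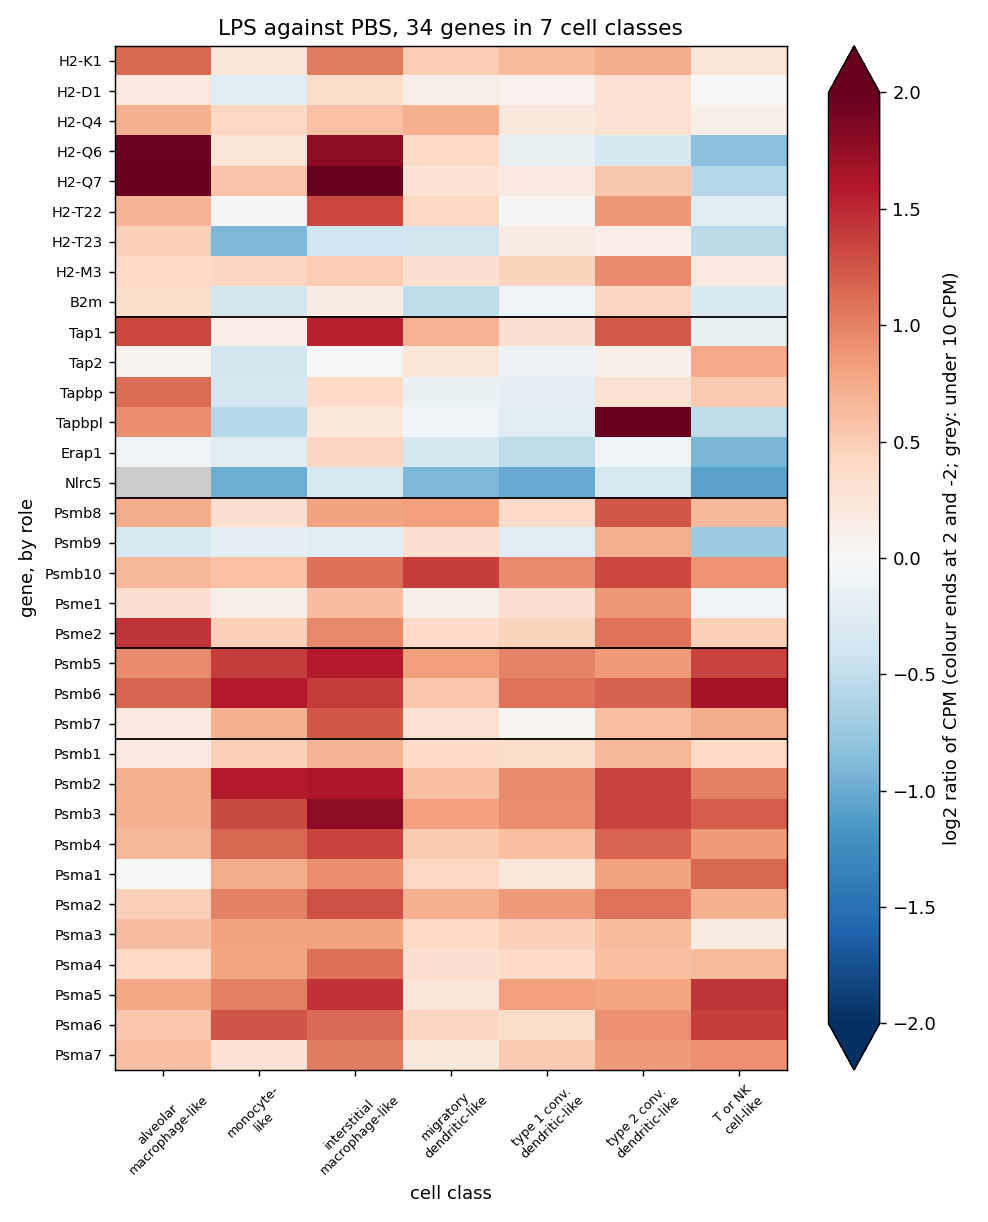
Log2 ratio of CPM, LPS over PBS, for each member (rows, by role) in 7 cell classes (columns), with red for higher and blue for lower in LPS and grey where a gene was under 10 CPM in both libraries. The 14 constitutive catalytic and other core subunits are above 0 in all 7 classes. Nlrc5 is below 0 in the 6 classes where it was measured and is grey in alveolar-macrophage-like cells.

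Across the 7 classes the core was the most uniform group. Each of the 14 constitutive catalytic and other core subunits had a log2 ratio of LPS over PBS above 0, and above the median of all genes, in 7 of 7 classes. The share of all genes that did so is not given, and the classes come from the same libraries, so these counts are descriptive. Psmb6 reached 2-fold in 6 of the 7, with ratios from 0.55 in migratory dendritic cell-like to 1.66 in T or NK cell-like cells. Psmb8, Psmb10 and Psme2 were above 0 in 7 of 7 classes as well, and Psmb9 in 2. H2-K1 was above 0 in 7 of 7 classes, B2m in 3 and H2-D1 in 5. Nlrc5 was below 0 in 6 of the 6 classes where it was measured, from -0.31 in interstitial-macrophage-like to -1.07 in T or NK cell-like cells, although the intervals of these 2 classes and of the type 2 conventional dendritic cell-like class included 0. In alveolar-macrophage-like cells, where Nlrc5 stayed under 10 CPM, its ratio went the other way. It was 1.10 there, from 137 UMIs in LPS and 58 in PBS.

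Interstitial macrophages occupy the tissue between the airspaces. In interstitial-macrophage-like cells 17 of 34 members were at least 2-fold higher in LPS than in PBS, against 9.84% of all genes, and 0 were at least 2-fold lower, against 15.3%. The median log2 ratio was 1.00 against -0.08 over all genes. Psmb3 had the highest ratio among core subunits, 1.79, at 443 CPM in LPS with Reg3g, 518 CPM in LPS and 149 CPM in PBS, and H2-Q7 the highest of the class I chains, 1.99. Tap1 had 133 CPM in LPS with Reg3g, 150.2 CPM in LPS and 51.5 CPM in PBS. H2-K1 had 2632, 2970 and 1444 CPM, H2-D1 1259, 1441 and 1115 CPM, B2m 2096, 1906 and 1701 CPM and Nlrc5 16.8, 12.5 and 15.5 CPM in LPS with Reg3g, LPS and PBS. All 3 constitutive catalytic subunits were at least 2-fold higher in LPS than in PBS. Psmb5 had 149.9, 172 and 57.5 CPM, Psmb6 364, 365 and 138 CPM and Psmb7 89.3, 103 and 43.5 CPM in LPS with Reg3g, LPS and PBS. Their counterparts Psmb8, Psmb9 and Psmb10 had 285, 77.5 and 129.7 CPM in LPS with Reg3g, 319, 65.7 and 200.3 CPM in LPS, and 183, 77.5 and 93.5 CPM in PBS. The immunoproteasome share was 44.9% in LPS with Reg3g, 47.8% in LPS and 59.6% in PBS, over 128, 166 and 471 cells.

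Migratory dendritic cells carry antigen to lymph nodes and had the highest class I and immunoproteasome levels of the 7 classes. H2-K1 had 4124 CPM in LPS with Reg3g, 4185 CPM in LPS and 2952 CPM in PBS. Psmb8 had 1249 CPM in LPS with Reg3g, 1317 CPM in LPS and 743 CPM in PBS, against 91.3, 88.1 and 49.5 CPM for Psmb5. Psmb9 had 485, 424 and 335 CPM against 229, 260.4 and 178 CPM for Psmb6, and Psmb10 had 242, 231 and 88.8 CPM against 86.7, 68.5 and 55.3 CPM for Psmb7, in the same order of libraries. Psmb10 was the only member at least 2-fold higher in LPS than in PBS there, 1 of 34 against 10.8% of all genes, with a log2 ratio of 1.38 (0.99 to 1.79), and 0 of 34 were at least 2-fold lower, against 9.74%. Tap1 had 265, 308 and 189 CPM, H2-D1 1943, 1925 and 1783 CPM, and B2m 2514, 1908 and 2725 CPM in LPS with Reg3g, LPS and PBS. Nlrc5, at 86.7 CPM in LPS with Reg3g, 56.3 CPM in LPS and 105 CPM in PBS, was higher here than in any other class. The share of the immunoproteasome, 82.9%, 82.5% and 80.5% in the 3 libraries, was the highest of all classes, over 136, 528 and 104 cells.

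Type 1 conventional dendritic cells are known for presenting outside antigen on class I. In that class 1 of 34 members was at least 2-fold higher in LPS than in PBS, Psmb6, against 4.49% of all genes. Nlrc5 was at least 2-fold lower, 1 of 34 against 6.98%, with 11.8 CPM in LPS with Reg3g, 11.5 CPM in LPS and 23.3 CPM in PBS. Psmb6 had 275 CPM in LPS with Reg3g, 302 CPM in LPS and 142 CPM in PBS and Psmb9 396, 310.3 and 365 CPM. Psmb5 stood at 111, 131 and 65.7 CPM beside 769.9, 695 and 532 CPM for Psmb8, and Psmb7 at 80.5, 69.1 and 66.2 CPM beside 161, 166 and 86.0 CPM for Psmb10, in LPS with Reg3g, LPS and PBS. H2-K1 had 1914, 1997 and 1290.1 CPM, H2-D1 1028, 1036 and 978 CPM, B2m 1353, 1063 and 1123 CPM and Tap1 232, 239.8 and 192 CPM in these libraries. The immunoproteasome share was 74.0% in LPS with Reg3g, 70.0% in LPS and 78.2% in PBS, over 66, 298 and 680 cells.

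Type 2 conventional dendritic cells, which mainly feed CD4 T cell responses, had all 6 catalytic subunits of both forms of the proteasome higher in LPS than in PBS. At least 2-fold higher in LPS than in PBS were 10 of 34 members, against 9.72% of all genes, and 0 were at least 2-fold lower, against 10.1%. The median log2 ratio was 0.79 against 0.05 over all genes. Psmb8 had 529 CPM in LPS with Reg3g, 643 CPM in LPS and 271 CPM in PBS, a ratio of 1.25 (1.10 to 1.40), the highest of any class. Psmb9 had 263 CPM in LPS with Reg3g, 196 CPM in LPS and 118 CPM in PBS, a ratio of 0.73 (0.48 to 0.98), and Psmb10 had 206, 197 and 77.9 CPM. All 3 immune subunits thus lay above PBS in both LPS libraries. The constitutive partners Psmb5, Psmb6 and Psmb7 had 128, 250.2 and 78.2 CPM in LPS with Reg3g, 122, 322 and 74.6 CPM in LPS, and 67.9, 143 and 49.4 CPM in PBS. H2-K1 had 2096, 2134 and 1277 CPM, H2-D1 1295, 1241 and 1016 CPM, B2m 1723, 1372 and 1017 CPM, Tap1 175, 193 and 82.1 CPM and Nlrc5 15.6, 10.5 and 13.2 CPM. The immunoproteasome share was 68.6% in LPS with Reg3g, 66.6% in LPS and 64.2% in PBS, over 65, 277 and 418 cells. Tapbpl had the largest ratio there, 2.40 (1.02 to 3.94), from 15 UMIs in LPS and 7 in PBS.

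T and NK cells read class I molecules on other cells and are the main source of interferon-gamma. In T or NK cell-like cells 7 of 34 members were at least 2-fold higher in LPS than in PBS, against 17.9% of all genes, and 1 was at least 2-fold lower, Nlrc5, against 15.0%. Psmb6 had 249.8 CPM in LPS with Reg3g, 292 CPM in LPS and 92.4 CPM in PBS, with a log2 ratio of LPS over PBS of 1.66 (1.08 to 2.29). Psmb9 had 132 CPM in LPS with Reg3g, 75.0 CPM in LPS and 124 CPM in PBS. Psmb5 had 134, 114 and 44.6 CPM beside 443, 391 and 249 CPM for Psmb8, and Psmb7 had 61.8, 58.8 and 35.1 CPM beside 190.7, 154 and 82.9 CPM for Psmb10. H2-K1 had 2106, 2508 and 2120 CPM, H2-D1 1048, 1089 and 1093 CPM, B2m 1623, 1275 and 1581 CPM, Tap1 156, 124 and 137 CPM and Nlrc5 45.7, 24.3 and 51.0 CPM in LPS with Reg3g, LPS and PBS. The class held only 93, 157 and 98 cells, and the immunoproteasome share was 63.2%, 57.2% and 72.6%. Alveolar macrophage markers summed in lymphoid cells to 1444, 3191 and 360 CPM in the 3 libraries, and their part in these values was not tested.

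Clusters within the 2 main classes were mostly specific to treatment, so the class values above compare different clusters. Of the PBS alveolar-macrophage-like cells 93.6% lay in cluster 14, whereas LPS cells lay mainly in clusters 3 and 4, with 39.5% and 35.7%. The immunoproteasome share of LPS alveolar-macrophage-like cells was between 36.2% and 47.5% in 6 clusters and 63.7% (60.0 to 67.2) in cluster 21. That cluster was led by the interferon-stimulated genes Rsad2, Ifit1, Cmpk2, Ifit3 and Gbp5, and held 41 cells of LPS with Reg3g, 51 of LPS and 0 of PBS. Its cells had 2377 CPM of H2-K1 in LPS with Reg3g and 3008 CPM in LPS, 216 and 271 CPM of Tap1, and 574 and 743 CPM of Psmb8. These levels lay above those of the whole class, although no gene of a cluster is tested against the cells it was clustered from. In cluster 14, which all 3 libraries shared, H2-K1 had 983 CPM in LPS with Reg3g (58 cells), 865 CPM in LPS (69 cells) and 751 CPM in PBS (3329 cells). The immunoproteasome share of that cluster was 46.3% (39.4 to 53.4), 47.5% (40.4 to 54.7) and 47.0% (46.2 to 47.7) in these libraries. The lower share of the class after LPS was thus not seen within cluster 14. Cluster 20, also shared, had 43.2%, 44.8% and 47.7%, over 99, 94 and 204 cells.

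PBS monocyte-like cells lay in clusters 7 and 2, with immunoproteasome shares of 70.6% and 71.9%. Cluster 2 and the LPS cluster 0 scored highest for nonclassical monocyte markers. In LPS the shares were 63.3% in cluster 0, 56.9% in cluster 1, 60.3% in cluster 6, 53.1% in the cycling cluster 13 and 42.9% in cluster 8, which was led by Upp1, Acod1 and Ccl2 among others. In LPS with Reg3g the same clusters had 61.5%, 57.9%, 57.3%, 56.8% and 46.6%. Each of these lay below both PBS clusters. The class I chains summed to 9112 CPM in LPS cluster 0 and 8900 CPM in PBS cluster 2. In PBS cluster 7 the sum was 5534 CPM, against 6369, 5113, 4823 and 3946 CPM in LPS clusters 1, 6, 8 and 13. The lower class I sum of monocyte-like cells after LPS thus compares different mixes of clusters.

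**Figure D5:**
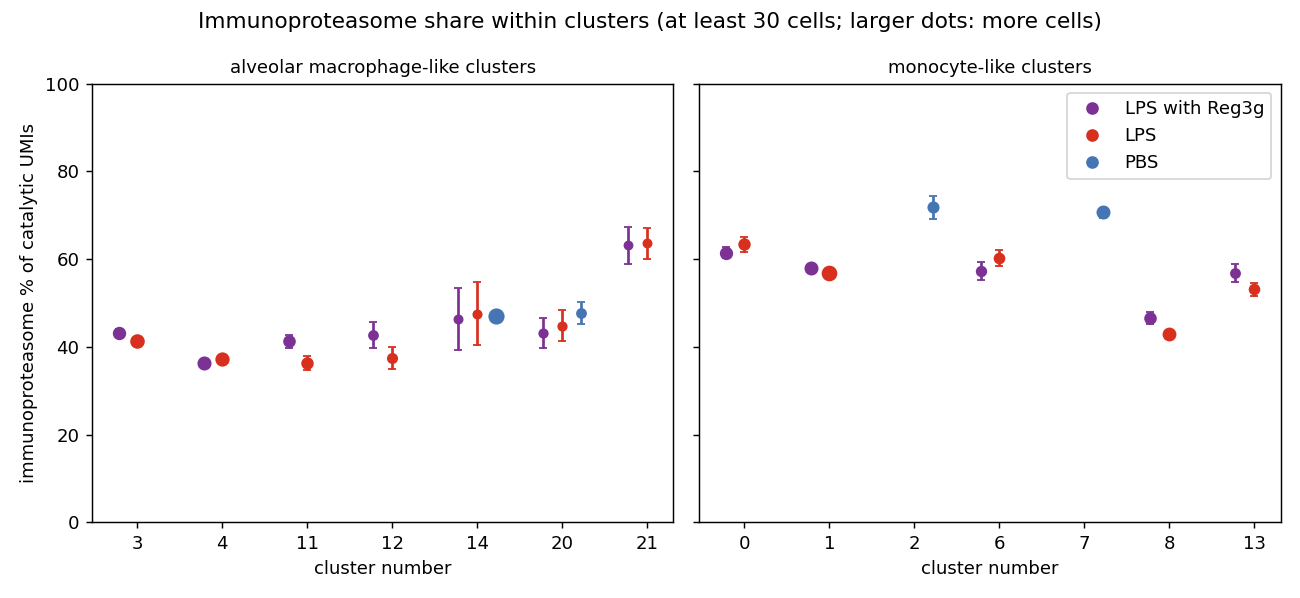
Immunoproteasome share of catalytic subunit UMIs, in percent with exact 95% binomial intervals, for clusters with at least 30 cells of a library (larger dots stand for more cells), in alveolar-macrophage-like and monocyte-like cells. Cluster 21 stands highest among alveolar-macrophage-like clusters at 63.7% in LPS, and the PBS monocyte-like clusters 2 and 7 stand at 71.9% and 70.6%.

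Adding Reg3g to LPS went with much smaller differences than LPS itself. In alveolar-macrophage-like cells 0 of 33 members differed at least 2-fold between LPS with Reg3g and LPS, against 0.126% of all genes, and in monocyte-like cells 0 of 34, against 0.135%. The members' median log2 ratios were -0.07 and -0.10, against 0.03 and 0.04 over all genes. The ratio was below 0 for 23 of 33 members in alveolar-macrophage-like and 25 of 34 in monocyte-like cells, and 9 and 8 members lay above the all-gene median. It was below 0 for 11 of the 11 other core subunits in both, although that of Psma1 in alveolar-macrophage-like cells changed sign with equal weight per cell. The share of all genes below 0 is not given. Both contrasts share the LPS library, so they are not independent of each other.

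The largest of these differences were among class I chains of monocyte-like cells. H2-Q6 had a log2 ratio of LPS with Reg3g over LPS of -0.80 (-0.98 to -0.63), at 21.4 CPM in LPS with Reg3g, 37.4 CPM in LPS and 31.0 CPM in PBS. H2-Q7 had -0.71 (-0.78 to -0.63), at 107 CPM in LPS with Reg3g, 175 CPM in LPS and 117 CPM in PBS, and H2-K1 had -0.33 (-0.35 to -0.31). The H2-Q7 and H2-K1 levels with Reg3g were below those of both other libraries. Among proteasome subunits of monocyte-like cells the lowest ratios were -0.39 for Psmb3, -0.32 for Psmb6 and -0.28 for Psmb2. The highest were 0.36 for Erap1 and 0.26 for Nlrc5, in the transport and transactivator group. In alveolar-macrophage-like cells the members ran from -0.23 for Psmb3 and -0.22 for Psmb2 to 0.16 for Tap2 and 0.14 for B2m. Across 8 classes the ratio was above 0 for Psmb9 and B2m and below 0 for Psmb6 and H2-K1 in all 8. Some of these ratios were close to 0, at -0.003 for Psmb6 in interstitial-macrophage-like and 0.05 for Psmb9 in neutrophil-like cells. How many of all genes keep the same sign in all 8 classes is not given, so no consistent difference is read from these signs. The sign of Psmb9 and B2m in monocyte-like cells changed under some other settings. That of Psmb9 in alveolar-macrophage-like cells changed when all cells of a library were pooled.

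In the smaller classes at most 1 member differed at least 2-fold between LPS with Reg3g and LPS. In T or NK cell-like cells this was Erap1, with a log2 ratio of 1.17, against 18.2% of all genes that differed 2-fold. It rests on 17 UMIs in LPS with Reg3g and 10 in LPS. In neutrophil-like cells this was again Erap1, with 1.33, against 12.3%, from 17 and 7 UMIs. In type 2 conventional dendritic cell-like cells the member was Tapbpl, with -1.07, against 13.8%. In interstitial-macrophage-like cells Tapbpl again differed, with -1.70, against 13.6%. The last ratio rests on 2 UMIs in LPS with Reg3g and 7 in LPS. No member reached 2-fold in migratory dendritic cell-like cells, where 6.64% of all genes did, or in type 1 conventional dendritic cell-like cells, where 11.5% did.

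Genes outside the 34 were taken from 5 lists of the same pathway, 68 symbols of which 2 had no feature. The 19S particle, which caps the core, recognises ubiquitin and unfolds substrates, was higher in monocyte-like cells of the LPS library: 15 of 19 measured genes were at least 2-fold higher in LPS than in PBS, against 11.0% of all genes, with a median log2 ratio of 1.32 against 0.02 over all genes. Psmd7 had 199 CPM in LPS and 63.4 CPM in PBS, Psmc5 144 and 45.9 CPM, and Psmd1 136 and 43.7 CPM, with ratios of 1.65, 1.65 and 1.63. In alveolar-macrophage-like cells 0 of 19 were 2-fold higher, against 5.74% of all genes, and the median was 0.48 against -0.25. Among activators and assembly factors, 2 of 8 were at least 2-fold higher in monocyte-like cells, the assembly chaperones Psmg2 at 1.30 and Psmg1 at 1.07, against 11.0% of all genes, and 0 of 8 in alveolar-macrophage-like cells. Most genes of the cap were thus higher in the monocyte-like cells of the LPS library.

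Other peptidases of the cytosol showed large ratios in few genes. Thop1, an oligopeptidase that destroys short peptides, had 12.5 CPM in LPS and 1.65 CPM in PBS monocyte-like cells, a log2 ratio of 2.92, and 14.0 and 6.16 CPM in alveolar-macrophage-like cells, a ratio of 1.19. Lap3, a leucine aminopeptidase, had 39.7 CPM in LPS and 12.7 CPM in PBS monocyte-like cells, a ratio of 1.64. Of the 9 measured genes of that list, 2 were at least 2-fold higher in monocyte-like cells, against 11.0% of all genes, and 1 in alveolar-macrophage-like cells, against 5.74%. Counts this small say little about the list beside these shares.

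Among other class I and class I-like chains, H2-M2 stood out in alveolar-macrophage-like cells. This nonclassical chain had 67.2 CPM in LPS with Reg3g, 48.1 CPM in LPS and 0.673 CPM in PBS, and a log2 ratio of LPS over PBS of 6.16 (5.51 to 6.90). Fcgrt, the neonatal Fc receptor chain, had 61.2 CPM in LPS and 315 CPM in PBS, a ratio of -2.36, and Hfe, which regulates iron uptake, had 4.79 and 13.6 CPM, a ratio of -1.50. Chains that use B2m thus differed in both directions. Of the 5 measured genes of this list in alveolar-macrophage-like cells, 1 was at least 2-fold higher, against 5.74% of all genes, and 2 lower, against 14.0%. In monocyte-like cells Hfe had a ratio of 0.61 for LPS with Reg3g over LPS, at 82.3 CPM in LPS with Reg3g and 53.8 CPM in LPS.

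The known regulators were less uniform. Ifng was found in T or NK cell-like cells with 24, 31 and 14 UMIs in LPS with Reg3g, LPS and PBS, or 64.5, 62.9 and 44.6 CPM. Its log2 ratio of LPS over PBS was 0.49 (-0.46 to 1.52), so no difference was detectable at this depth. Irf1, an interferon regulatory factor, had 39.9 CPM in LPS with Reg3g, 39.6 CPM in LPS and 26.1 CPM in PBS alveolar-macrophage-like cells, a ratio of 0.60, and 98.7, 80.9 and 85.0 CPM in the monocyte-like cells of these libraries, a ratio of -0.07. The interval of the monocyte-like ratio, -0.20 to 0.05, included 0. Nfe2l1, which drives proteasome genes when proteasome activity is short, had 151, 147 and 142 CPM in alveolar-macrophage-like cells, a ratio of 0.05, and 94.9, 99.4 and 65.8 CPM in monocyte-like cells, a ratio of 0.59. Rfx5, a partner of Nlrc5 at class I promoters, stayed under 10 CPM in both classes, at 6.95, 6.01 and 8.32 CPM in alveolar-macrophage-like and 5.19, 4.16 and 7.55 CPM in monocyte-like cells. Of 16 measured regulators in alveolar-macrophage-like cells, Jak2 and Irf9 were at least 2-fold higher in LPS than in PBS, at 1.06 and 1.02, against 5.74% of all genes, and Irf8 was at least 2-fold lower, at -1.73, against 14.0%. In monocyte-like cells none of 16 reached 2-fold, against 11.0% of all genes higher and 8.55% lower, and Stat2 had the lowest ratio, -0.99, at 37.3 CPM in LPS and 74.3 CPM in PBS.

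Between LPS with Reg3g and LPS none of the genes of these lists differed 2-fold in either main class. The lowest log2 ratios in monocyte-like cells were -0.46 for Psmg2, -0.41 for Thop1 and -0.40 for the 19S subunit Psmc4, and Ifngr1, a chain of the interferon-gamma receptor, had 0.35, at 554 CPM in LPS with Reg3g and 435 CPM in LPS. In alveolar-macrophage-like cells H2-M2 had the highest, 0.48, and Psmc4 the lowest, -0.34. Psmc4, which helps to unfold substrates, was thus lower with Reg3g in both classes, by less than 2-fold. In neutrophil-like cells, compared only between both LPS libraries, the immunoproteasome share was 52.0% in LPS with Reg3g and 50.2% in LPS, over 161 and 177 cells.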

How the data were processed

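Single-cell RNA was sequenced from transcript 3′ ends in droplets (GEM-X v4 chemistry, per the labels' protocols). The deposited values are UMI counts per gene and barcode. Cell Ranger 9.0.1 made them, per the file headers. The submitters' processing notes add bcl2fastq 5.0.1, Seurat 4.4.0 and mm10. For positions, GENCODE M21 was used, which matched 52081 identifiers (94.1%). By that annotation 5 members overlap another gene on the same strand and 20 on the opposite strand. Neither the annotation behind the counts nor the use of strand in counting was given, so counts of overlapping genes may be mixed. The libraries held 60942042 UMIs in LPS with Reg3g, 70474636 in LPS and 52354207 in PBS, over 10213, 15015 and 8475 barcodes.

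Filters were 500 genes, 1000 UMIs and no more than 15% of mitochondrial counts per cell. This removed 544, 1135 and 343 barcodes of LPS with Reg3g, LPS and PBS. Doublets were the cells with the highest Scrublet scores, at an assumed rate of 0.4% for every 1000 barcodes, and 417, 902 and 287 were removed. Leiden clustering at resolution 1 gave 25 clusters. It used 15 neighbours on 30 principal components of 2000 variable genes, after scaling to 10000 counts a cell (scanpy 1.11.5). Clusters were named from marker lists, and a cluster with under 3 detected markers, or led by mitochondrial RNA, or of high doublet scores, stayed unnamed, as did 275, 257 and 143 cells. H2-Q6 and H2-Q7 were the only members among the variable genes.

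For CPM, the counts of all cells of a class in a library were added and set against their total. Intervals are exact, at 95% and for counting error alone: Poisson for CPM, conditional binomial for log2 ratios and Clopper-Pearson for shares (scipy 1.17.1). Where a library had 0 UMIs, the floor was 3 counts. The ratios were tested on simulated data. Genes with at least 10 CPM in either library were counted, and 2-fold was the size used to count genes. Classes with at least 50 cells in each of the 2 libraries compared were used. The members and all lists were chosen with earlier results of these data known. The text gives all 34 members. It names the catalytic pairs, H2-K1, H2-D1, B2m, Tap1 and Nlrc5 in each class, the member with the highest or lowest ratio of its role elsewhere, and, of the other pathway genes, Ifng, Irf1, Rfx5 and Nfe2l1 whatever their values, with up to 3 more per list and contrast in either main class by size of ratio. Alternatives changed the filter, doublet rate, clustering, scaling, CPM floor and weighting of cells. Leaving out the cycling clusters 13 and 20 was chosen after seeing the data.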

Additional observations from a re-analysis of the deposited data

Results flagged for a closer look

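In alveolar-macrophage-like and monocyte-like cells 3 members measured in both had log2 ratios of LPS over PBS of opposite sign, at least 1.38 apart. Both intervals of each were clear of 0. H2-D1 and B2m were also opposite in sign, but only 0.44 and 0.72 apart. The difference between the classes was not tested, since each group is 1 library and both classes come from it. Tapbpl had a ratio of 0.93 (0.71 to 1.16) in alveolar-macrophage-like and -0.57 (-0.90 to -0.24) in monocyte-like cells, 1.51 apart. Tapbp had 1.12 (1.08 to 1.17) and -0.33 (-0.40 to -0.26) in the same classes, 1.46 apart, and shares part of its strand with Zbtb22. H2-T23 had 0.48 (0.35 to 0.62) and -0.90 (-1.04 to -0.76), 1.38 apart. When the cells of each library were pooled, Tapbp had a ratio of 0.61, Tapbpl one of 0.49 and H2-T23 one of -0.07.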

How the results depend on the processing

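No paired analysis was possible because each group is a single library, and leaving out a replicate was not possible for the same reason. The number of members at least 2-fold higher in LPS than in PBS alveolar-macrophage-like cells, 7, became 15 with median-of-ratios scaling and 16 with trimmed mean scaling. The number in monocyte-like cells, 8, became 5 when all cells of a library were pooled. The share of all genes 2-fold higher is not given for alternative settings, so no such count here is set against one. Pooling all cells of a library gave immunoproteasome shares of 48.4% in LPS with Reg3g, 49.7% in LPS and 59.7% in PBS, for each of the 2 classes. With equal weight per cell the share was 41.0% in LPS with Reg3g alveolar-macrophage-like cells and 57.2% in LPS with Reg3g and 55.5% in LPS monocyte-like cells. Thinning to 2000 UMIs gave 46.1% in PBS alveolar-macrophage-like cells and 57.2% in LPS with Reg3g and 54.2% in LPS monocyte-like cells. Clustering at resolution 0.5 gave 39.2% in LPS alveolar-macrophage-like cells, and a doubled doublet rate 54.1% in LPS monocyte-like cells. The cause of these shifts was not tested. In each of these settings the LPS share stayed below the PBS share. Leaving out the cycling clusters, chosen after seeing the data, gave 8 members 2-fold higher in each class. The main counts were 7 in alveolar-macrophage-like and 8 in monocyte-like cells. For LPS over PBS, the sign of a member's log2 ratio was kept in 421 of 429 recomputed values in alveolar-macrophage-like and in 436 of 442 in monocyte-like cells, and for LPS with Reg3g over LPS in 414 of 429 and in 434 of 442.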
